A study of Mus musculus with 6 samples.

Results

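The costimulatory and checkpoint genes followed here are the 10 genes Cd40, Cd80, Cd86, Cd83, Cd274, Pdcd1lg2, Icosl, Cd200, Socs1 and Socs3, chosen by function and with earlier results of these data known, of 22911 named genes on the array. They were represented by 16 of its 56605 probes, those whose RefSeq accession names a member, and 9 of the 10 genes were bright enough to be tested. The test ran over 4488 units, of which 3276 were genes with a name and 1212 were single probes that no name could be given, and each such probe is counted as a gene below. The cells were C5aR+ LysoDCs, lysozyme-expressing phagocytes with the C5a receptor, sorted from Peyer's patches, lymphoid organs in the wall of the mouse small intestine, after CD11c+ enrichment with beads. All 6 samples were cultured with CSF-1 at 0.1 μg/mL and a factor spelled CFS-2 in the labels at 0.5 μg/mL. The 3 untreated samples had 0 nM C5a and the 3 C5a samples had 100 nM recombinant C5a for 3 h. The culture time of the untreated samples, the strain, sex and age of the mice, and whether replicates came from separate animals are not given in the sources used here, so p-values measure only the spread between these samples, which may be technical. The comparison addresses whether C5a, a fragment of complement component C5, triggers signalling in these cells.

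A T cell that meets its antigen also reads signals from the antigen-presenting cell. CD80 and CD86 engage CD28 to costimulate and CTLA-4 to restrain, ICOS ligand engages ICOS, and CD40 receives CD40 ligand from the T cell and drives NF-kB in the presenting cell. PD-L1 and PD-L2, encoded by Cd274 and Pdcd1lg2, engage the inhibitory receptor PD-1, CD200 engages an inhibitory receptor on myeloid cells, and SOCS1 and SOCS3 switch off JAK-STAT signalling inside the cell. Peyer's patch phagocytes meet gut antigen all the time, so the balance of these signals is of interest there.

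The arrays differed in brightness, and detection largely followed it. Between 2727 and 6959 probes per array were well above background, the scanner software's flag for a spot clearly brighter than its surroundings. The 75th percentile of signal over the 2370 probes detected on all 6 arrays ranged over 4.23-fold. Of the members, 6, 8 and 9 genes had a detected probe on untreated 3, 1 and 2, and 7, 9 and 9 genes on C5a 3, 1 and 2. Of 20 mononuclear phagocyte markers, 12 were detected on all 6 arrays, among them Lyz1, Lyz2, Itgax, Csf1r and Cd74, whereas Cx3cr1, Mertk, Fcgr1, Zbtb46 and Flt3 were on none. C5ar1, the receptor used in the sort, was detected on 3 arrays. B cells also carry many of these molecules. The summed signal of the phagocyte markers, in units of each array's 75th percentile, was 75.4 to 93.5 in untreated and 61.7 to 76.7 in C5a samples. Of 9 B cell markers, 8 were detected on no array, including Ms4a1 and Cd79a, while Cd79b was on 3 arrays. Their summed signal in the same units was 0.209 to 0.569 in untreated and 0.141 to 0.357 in C5a samples. Of 10 T cell markers, 9 were detected on no array, and their sum was 0.124 to 0.399 and 0.128 to 0.227. For 8 epithelial markers, none of them detected on any array, the sum was 0.0497 to 0.28 and 0.0721 to 0.182. Sums of mostly undetected probes, as for B and T cells, are largely background in units of each array's 75th percentile. They need not show how many such cells there were. Of 5 plasmacytoid dendritic cell markers, Bst2 was detected on 5 arrays, Siglech and Ccr9 on 4, Tcf4 on 3 and Ly6d on none, with sums of 0.462 to 1.13 and 0.504 to 1.13. Of 5 plasma cell markers, Xbp1 was detected on all 6 arrays, Sdc1 and Mzb1 on 2, Jchain on 1 and Tnfrsf17 on none. Their sums were 0.431 to 0.751 and 0.41 to 0.766. The part of these other cell types in the values below was not tested, and in such bulk samples fewer cells of a type and less RNA per cell cannot be told apart.

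**Figure D1:**
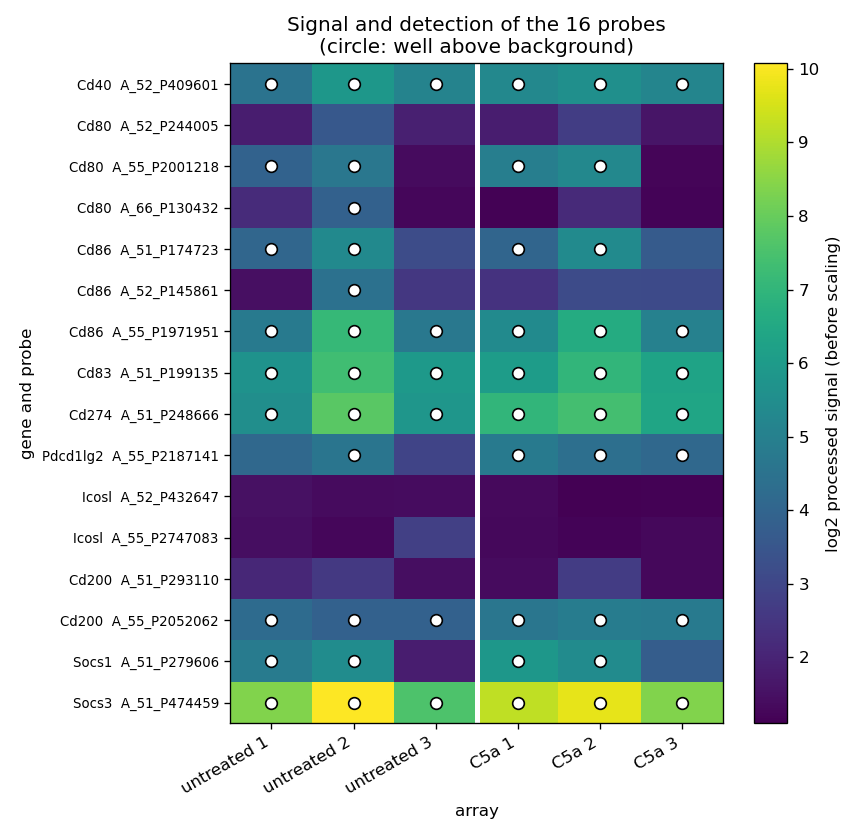
Signal of each of the 16 member probes (rows) on each array (columns), as log2 processed signal before scaling, with a circle where the probe was well above background. Socs3 is bright on every array, and neither Icosl probe has a circle on any array.

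No member passed the test of C5a against untreated. In limma with Benjamini-Hochberg adjustment over 4488 genes, each of the 9 tested members had an adjusted p of 0.9992, and 0% of all genes passed 0.05. At an unadjusted limma p under 0.05 there were 0 members and 2.34% of all genes. The C5a and untreated arrays overlapped for all 9 members tested, while 5.68% of all genes had groups that did not overlap, 3.36% with C5a above and 2.32% with C5a below. Of the 9 differences, 6 were positive, against 54.9% over all genes. With arrays scaled over all probes 9 were positive, where the median of all genes was 0.40 on the log2 scale, and with normexp background correction 2 were, where that median was -0.12. Taken relative to the median of all genes, 6 members lay above it in the main scaling, 6 with scaling over all probes and 5 with normexp. The median difference was 0.23 for the members and 0.04 for all genes. Levels below are scaled log2 signals, with 0 at the 75th percentile of the probes detected on all arrays. A difference is the C5a mean less the untreated mean, given with limma's SE, and n = 3 per group.

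**Figure D2:**
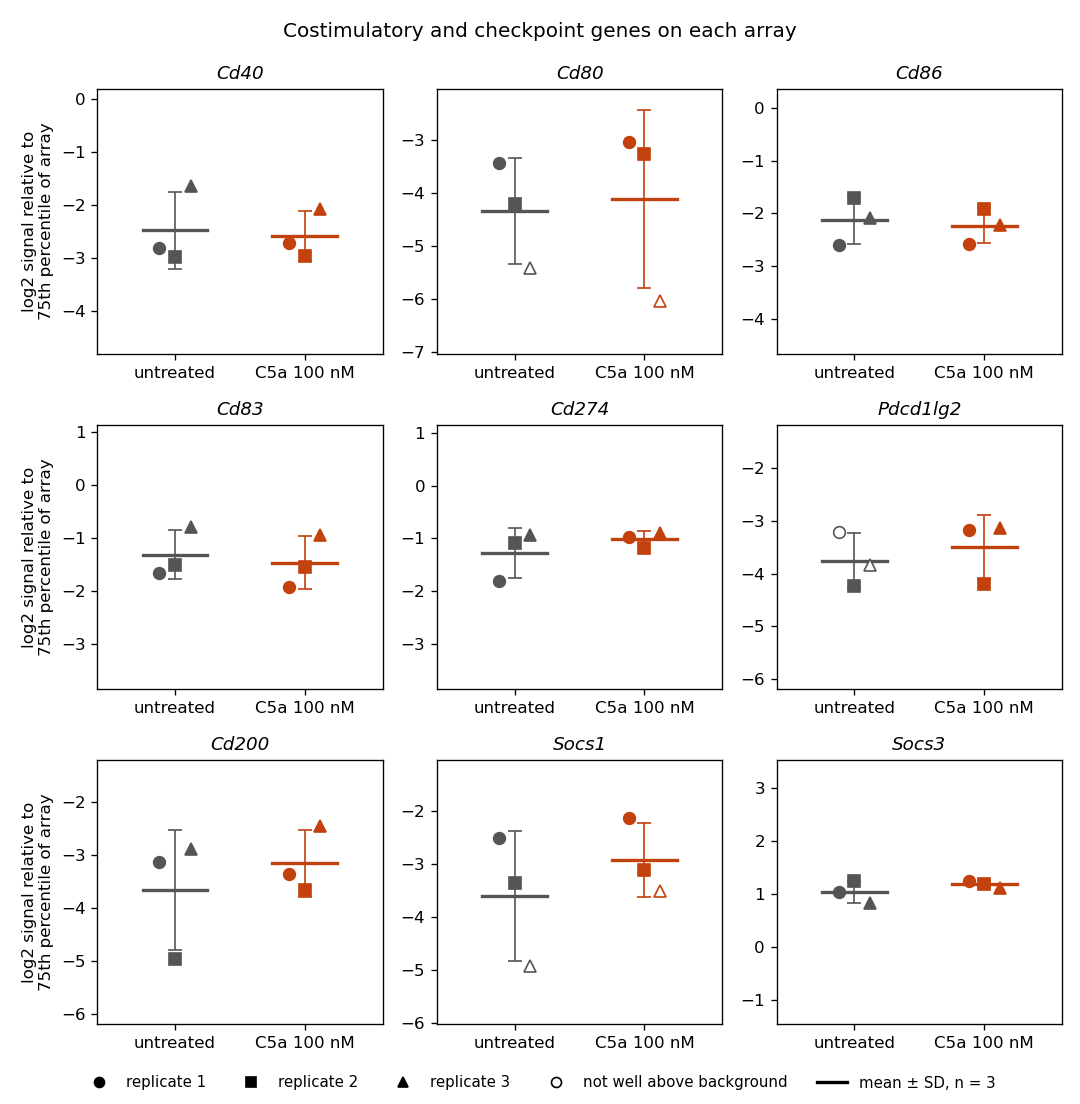
Log2 signal relative to the array's 75th percentile (vertical axes) of the 9 tested members on untreated and C5a arrays, with symbols for the replicate number, open where the probe was not well above background, and lines for the mean ± SD of 3 arrays. Groups overlap in every panel, and the Cd40 and Cd83 values of replicate 3 lie above those of replicates 1 and 2 in both groups.

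The regulators of cytokine signalling included the member with the tightest values. Socs3, an inhibitor of gp130 and other cytokine receptors (probe A_51_P474459), was at 1.03, 1.24 and 0.82 on untreated 1 to 3 and at 1.24, 1.19 and 1.11 on C5a 1 to 3. Untreated 3 was lowest, and the C5a values lay within the untreated range. The difference was 0.15 (SE 0.25), and its 95% interval ran from -0.45 to 0.75, that is from 1.36-fold lower to 1.68-fold higher. The sign was positive in all 20 alternatives run, but the difference was 0.05 without untreated 3 and 0.26 without untreated 2. Several alternatives, such as other filters on dim probes or the replicate number as a block, keep the same values, so the sign could not turn there. Before scaling, the signal of Socs3 was 192 on untreated 3 and 1080 on untreated 2, a range that scaling narrowed to 0.42 on the log2 scale.

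Socs1, which inhibits JAK kinases directly and restrains interferon signalling (probe A_51_P279606), was at -2.51, -3.36 and -4.93 on untreated 1 to 3 and at -2.14, -3.12 and -3.51 on C5a 1 to 3. It was well above background on both arrays of numbers 1 and 2 and on neither of number 3, so the lowest value of each group is near the limit of detection. The difference was 0.68 (SE 0.66), with a 95% interval from -0.87 to 2.22. It rested on single arrays, at 0.01 without untreated 3, 0.29 without C5a 1 and 1.22 without untreated 1. C5a was higher within each same-numbered pair, by 0.37, 0.25 and 1.42. Over all genes tested, 14.4% were higher with C5a in all 3 pairs, as were 2 members, Socs1 and Pdcd1lg2. The largest of the pair differences rests on the number 3 arrays, where the probe was not detected, and with normexp the difference was -0.04. With the replicate number as a block the SE of Socs1 was 0.32 (limma unadjusted p = 0.0883, adjusted p = 0.926).

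SOCS genes are textbook targets of the STAT and interferon pathways that their proteins inhibit, and Cd274 is a known interferon target, so the promoters of these 3 members are shown. They are 300 bases each, 250 before and 50 after the gene's start, from RefSeq in build GRCm38.p6. They lie at chr16:10785487-10785786 on the minus strand for Socs1, at chr11:117969317-117969616 on the minus strand for Socs3 and at chr19:29367188-29367487 on the plus strand for Cd274. Capitals mark matches to a motif.
Socs1: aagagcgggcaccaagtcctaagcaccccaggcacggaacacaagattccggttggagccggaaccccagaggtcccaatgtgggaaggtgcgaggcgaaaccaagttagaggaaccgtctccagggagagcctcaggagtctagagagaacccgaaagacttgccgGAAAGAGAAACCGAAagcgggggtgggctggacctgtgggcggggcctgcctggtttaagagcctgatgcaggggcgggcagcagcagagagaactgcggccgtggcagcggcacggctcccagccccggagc
Socs3: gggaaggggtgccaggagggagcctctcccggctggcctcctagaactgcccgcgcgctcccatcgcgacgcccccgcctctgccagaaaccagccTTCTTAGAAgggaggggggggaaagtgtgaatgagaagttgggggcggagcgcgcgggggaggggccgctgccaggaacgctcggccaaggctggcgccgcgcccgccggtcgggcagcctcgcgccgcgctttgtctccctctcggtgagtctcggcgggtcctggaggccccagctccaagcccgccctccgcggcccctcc
Cd274: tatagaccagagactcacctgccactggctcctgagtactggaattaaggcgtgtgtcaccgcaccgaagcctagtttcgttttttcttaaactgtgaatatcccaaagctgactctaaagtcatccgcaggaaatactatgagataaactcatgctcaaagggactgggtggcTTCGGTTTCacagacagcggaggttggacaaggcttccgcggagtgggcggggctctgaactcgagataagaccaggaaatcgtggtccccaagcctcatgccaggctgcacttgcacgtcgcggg
Of the 10 members, 7 had a promoter in this table, and 4 motifs were searched on both strands in all of them. They were the STAT motif TTCNNNGAA, an interferon response core GAAANNGAA, an NF-kB core GGGNNTTCC and the AP-1 motif TGACTCA, present in 8.3%, 8.56%, 5.82% and 5.2% of 32851 promoters of the same length. Socs1 had 2 overlapping matches to the interferon core, GAAAGAGAA starting 83 and GAAACCGAA starting 77 bases before the gene's start. Cd274 had 1, on the other strand, read here as TTCGGTTTC and starting 76 bases before the start, and Socs3 had 1 STAT motif, TTCTTAGAA, starting 154 bases before it. No match lay in the promoters of Cd80, Pdcd1lg2, Icosl and Cd200. A match is a description of these letters, and no binding was measured.

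Among the receptors and ligands of costimulation, Cd40 and Cd83 were detected on all 6 arrays. Cd40 (probe A_52_P409601) was at -2.81, -2.99 and -1.64 on untreated 1 to 3 and at -2.71, -2.97 and -2.07 on C5a 1 to 3. Number 3 was highest in both groups, while numbers 1 and 2 differed between the groups by 0.10 and 0.02. The difference over the groups was -0.10 (SE 0.44, 95% interval -1.15 to 0.94), and it was 0.32 without untreated 3 and 0.09 without C5a 2. Cd83, a maturation marker whose protein holds MHC class II and CD86 at the cell surface (probe A_51_P199135), was at -1.66, -1.52 and -0.79 on untreated 1 to 3 and at -1.93, -1.55 and -0.94 on C5a 1 to 3. Number 3 was again highest in both groups, and C5a was lower within each pair, with differences of -0.28, -0.03 and -0.15, as in 10.8% of all genes. The difference of -0.15 (SE 0.38, 95% interval -1.04 to 0.74) became 0.11 without untreated 3 and 0.08 without C5a 1.

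The CD28 ligands Cd80 and Cd86 were each read by 3 probes. For Cd86 the probe in the test, A_55_P1971951, was detected on all 6 arrays, at -2.60, -1.71 and -2.08 on untreated 1 to 3 and at -2.58, -1.92 and -2.21 on C5a 1 to 3. Number 1 was lowest and number 2 highest in both groups. The difference was -0.10 (SE 0.34), within an interval from -0.89 to 0.69, or from 1.86-fold lower to 1.61-fold higher, and it was 0.10 without untreated 2 and 0.07 without C5a 1. A second kept probe, A_51_P174723, was detected on 4 arrays and had means of -3.44 in untreated and -3.58 in C5a samples. The last Cd86 probe was detected on untreated 2 alone.

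Cd80 was dimmer. Its probe in the test, A_55_P2001218, was at -3.42, -4.20 and -5.41 on untreated 1 to 3 and at -3.03, -3.25 and -6.04 on C5a 1 to 3. It was well above background on numbers 1 and 2 in both groups and not on number 3, where its raw signal was 2.56 and 2.33, close to the median of all probes on those arrays, 3.21 and 2.76. The pairs of numbers 1 and 2 differed by 0.39 and 0.95, the pair of number 3 by -0.64. The difference of 0.23 (SE 0.88) had the widest interval of the 9 members, from -1.84 to 2.30, and was 1.20 without C5a 3 and -0.30 without untreated 3 or without C5a 1. The other Cd80 probes were detected on 0 and 1 arrays. Icosl, the ligand of ICOS, was detected by neither of its 2 probes on any array. Raw signals of its probe A_52_P432647 were 2.82, 2.60 and 2.66 in untreated and 2.51, 2.15 and 2.23 in C5a samples, where probes flagged as well above background had signals of at least 10.5 to 12.8, depending on the array. Icosl was therefore not tested, and a level of this gene could not be shown on these arrays.

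The PD-1 ligand genes are neighbours on chromosome 19, with 0 annotated genes between them in GRCm38.p6. Cd274, encoding PD-L1 (probe A_51_P248666), was detected on all 6 arrays, at -1.81, -1.08 and -0.94 on untreated 1 to 3 and at -0.97, -1.18 and -0.89 on C5a 1 to 3. Untreated 1 lay below the other 5 arrays, and the pairs differed by 0.84, -0.10 and 0.05. The difference was 0.26 (SE 0.32, 95% interval -0.48 to 1.01), and without untreated 1 it was -0.0046. Pdcd1lg2, encoding PD-L2 (probe A_55_P2187141), carried the detection flag on untreated 2 and on all 3 C5a arrays. Its values were -3.21, -4.24 and -3.83 on untreated 1 to 3 and -3.17, -4.19 and -3.13 on C5a 1 to 3. The untreated and C5a values of numbers 1 and 2 differed by 0.04 and 0.05, and those of number 3 by 0.70. The difference was 0.26 (SE 0.42, 95% interval -0.72 to 1.25), and it was 0.02 without untreated 2, 0.08 without C5a 3, 0.10 without C5a 1, 0.54 without untreated 1 and 0.61 without C5a 2. Detection and level thus gave different pictures of Pdcd1lg2, since untreated 1, without the flag, had a higher scaled level than C5a 2, with it.

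Cd200 was read by 2 probes. A_55_P2052062 was detected on all 6 arrays, with raw signals of 18.7, 14.7 and 14.7 on untreated 1 to 3 and 24.5, 29.6 and 28.2 on C5a 1 to 3. Before scaling the groups did not overlap, as for 0.579% of all genes and for no other member, though these signals are not far above the lowest of any probe flagged as well above background, 10.5 to 12.8. After scaling they did, at -3.13, -4.96 and -2.89 in untreated and -3.37, -3.67 and -2.45 in C5a samples, with untreated 2, the brightest array, lowest. The difference was 0.50 (SE 0.61, 95% interval -0.94 to 1.93), and it was -0.15 without untreated 2, 0.14 without C5a 3, 0.76 without untreated 1 and 0.88 without untreated 3. The other probe, A_51_P293110, was detected on no array.

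**Figure D3:**
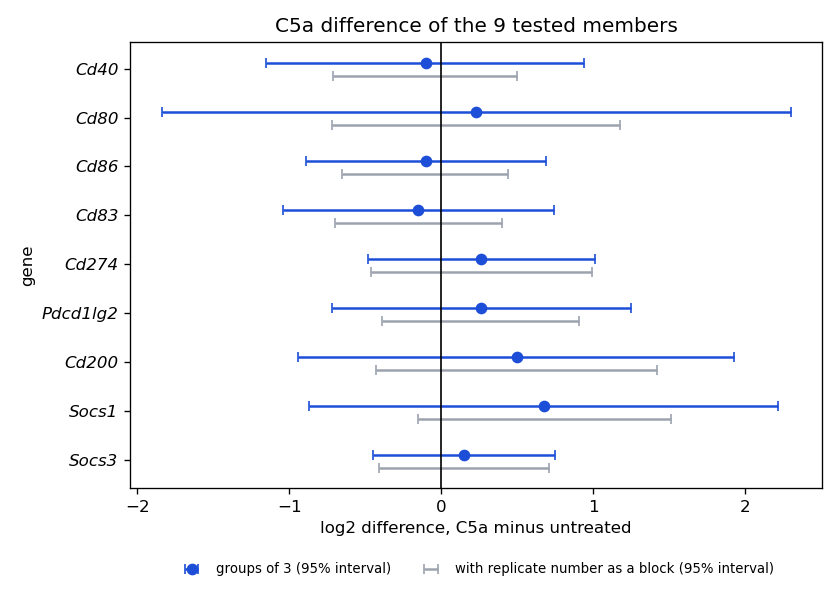
Log2 difference, C5a minus untreated (horizontal axis), of the 9 tested members, with 95% intervals from limma for the groups of 3 (blue) and with the replicate number as a block (grey). All 18 intervals include 0; the narrowest blue one is that of Socs3 and the widest that of Cd80.

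The members were also compared between replicate numbers, where none passed the adjusted test. Samples are numbered 1 to 3 in each group, and over all genes tested the deviations of same-numbered arrays from their group means correlated at 0.211, 0.269 and 0.384. Those of differently numbered arrays correlated at -0.252 to 0.071. Deviations cancel within each group, so these correlations are not independent of each other. For all 9 members the largest difference between numbers, averaged over both groups, was larger than that between C5a and untreated, as for 86.5% of all genes. The first is the largest of 3 differences over 2 arrays a side, the other a single difference over 3 arrays a side. In a limma F test over the numbers with C5a in the model, 0 members and 0% of all genes had a Benjamini-Hochberg adjusted p under 0.05 (lowest adjusted p of any gene 0.173). At an unadjusted p under 0.05 there were 6 of 9 members and 17.8% of all genes. The members were Cd80 (limma F test, unadjusted p = 0.00633, adjusted p = 0.202), Socs1, Cd40, Cd200, Cd83 and Pdcd1lg2.

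The members did not follow the numbers in 1 direction. Both arrays of number 3 were above the other 4 for Cd40, Cd83, Cd274 and Cd200, as for 14% of all genes, and both were below for Cd80 and Socs1, as for 19.7%. Number 3 exceeded number 1 by 0.91 for Cd40, 0.93 for Cd83, 0.58 for Cd200 and 0.47 for Cd274, while number 3 less number 1 was -2.50 for Cd80 and -1.90 for Socs1. For Cd274 the margin was small, with untreated 3 at -0.94 and C5a 1 at -0.97 (limma F test over the numbers, unadjusted p = 0.441). Cd80 and Socs1 are also the members that were not detected on the number 3 arrays, which had the fewest detected probes in each group. Both arrays of number 2, the brightest in each group before scaling, were below the other 4 for Cd40, Pdcd1lg2 and Cd200, as for 7.73% of all genes, and above for Cd86, as for 8.76%. Both arrays of number 1 were below the others for Cd86 and Cd83, as for 9.67%, and above for Socs1, as for 13.8%. Array brightness and number move together here, and the part of brightness in these differences was not tested. Socs3 did not stand on 1 side for any number, and its numbers differed by at most 0.25.

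**Figure D4:**
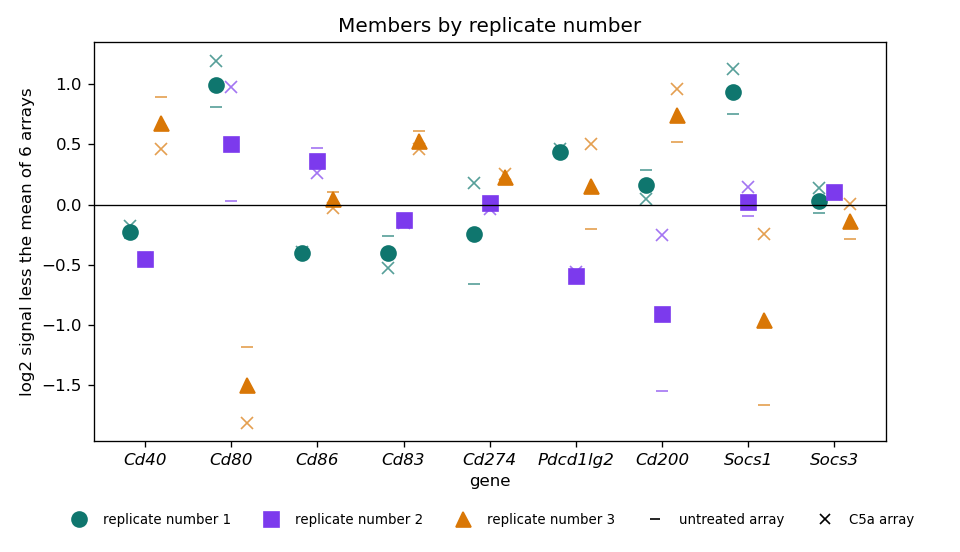
Log2 signal less the mean of the 6 arrays (vertical axis) of the 9 tested members, with large symbols for the mean of the 2 arrays of each replicate number, dashes for untreated and crosses for C5a arrays. Number 3 has the highest mean for Cd40, Cd83, Cd274 and Cd200 and the lowest for Cd80, Socs1 and, by a small margin, Socs3.

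The genes most like each member over the 6 arrays were found among 3275 other named genes by Pearson's r, as a description over 6 arrays that share replicate numbers and brightness. They were Tra2b (0.990), Prh1 and Impg1 for Cd40, and Serpinb8 (0.992), Tmprss3 and Arhgef15 for Cd83. For Cd86 they were Mt1 (0.977), Tmem176b and Cramp1l, and for Cd274 they were Dbi (0.994), Eef1b2 and Washc2. Cd200 was closest to Oprm1 (0.964), Psmd8 and Lsm4, and Socs3 to Kansl3 (0.994), Atp13a1 and Slc7a7. Unlike the members searched, these genes did not need detection on all 6 arrays. Prh1, Psmd8 and Kansl3 were detected on 5, Washc2 and Lsm4 on 4, and Cramp1l, Atp13a1 and Slc7a7 on 3. The r values given are the highest of all genes searched, so their size is set by the search.

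Genes around the members gave no call. None of the 63 tested genes in the 7 lists of related genes had an adjusted p under 0.05 in limma with Benjamini-Hochberg adjustment (lowest adjusted p 0.9992), none had an unadjusted limma p under 0.05, against 2.34% of all genes, and none had groups that did not overlap, against 5.68%. The 6 T cell counter-receptors of the members, such as Cd28, Ctla4, Icos and Pdcd1, were detected on no array. Of 22 other B7, TNF superfamily, adhesion and inhibitory ligands on the array, 14 were detected on none, including Cd70, Tnfsf4, Cd276 and Icam1. Of the 5 tested, 3 differences were positive and 2 negative, with Nectin2 at 0.41 (SE 0.34), Pvr at 0.61 (SE 0.83), the adhesion ligand Cd48 at 0.20 (SE 0.39) and Btn1a1, a butyrophilin, at -0.05 (SE 0.40). Nectin2 was detected on 1 untreated and 3 C5a arrays, and Pvr on 2 untreated and 3 C5a arrays. Among 14 receptors that myeloid cells can carry, 6 were tested with 3 differences each way. They included Lilrb4a, an inhibitory receptor, at -0.46 (SE 0.51), Pirb, another, at -0.51 (SE 0.88), and Sirpa, the receptor of CD47, at 0.21 (SE 0.43). Pirb was detected on 2 untreated and 2 C5a arrays. The CD200 receptor gene Cd200r1 was detected on no array.

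Of 16 CD40 and NF-kB signal genes, 10 were tested, 3 with a positive and 7 with a negative difference (median -0.15). Tnfaip3, whose protein restrains NF-kB, had the largest difference by p, -1.35 (SE 0.68), with untreated 3 highest at 0.08 and the untreated range of -2.17 to 0.08 overlapping the C5a range of -3.16 to -1.31. Nfkbia, an inhibitor that is itself an NF-kB target, differed by -0.15 (SE 0.45) and the subunit gene Rela by 0.04 (SE 0.31). Traf1, an adaptor of CD40 signalling, was at -0.58, -0.33 and -0.64 on untreated and -0.63, -0.92 and -0.78 on C5a arrays. The dendritic cell maturation list had 12 tested members, 7 positive and 5 negative (median 0.06). Of these Ccl17, a chemokine for T cells, had a mean of 0.77 ± 1.19 (SD) without and 1.01 ± 0.91 with C5a, and Ccl5 differed by -0.02 (SE 0.50). H2-Aa, an MHC class II chain, differed by -0.74 (SE 0.50) and Ebi3, a cytokine subunit, by -1.51 (SE 1.14). H2-Aa was detected on 2 untreated and 2 C5a arrays, and Ebi3 on 3 untreated arrays and 1 C5a array. Fscn1, Ccl22 and Il12b were detected on no array.

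The 10 genes of the SOCS family and its ubiquitin ligase partners other than Socs1 and Socs3 had 6 tested members, 2 positive and 4 negative. Cish, the family member that follows STAT5, was at -3.49, -3.32 and -2.30 on untreated and -3.20, -2.82 and -2.20 on C5a arrays, a difference of 0.30 (SE 0.43), and the adaptor genes Elob and Eloc differed by 0.01 (SE 0.31) and -0.10 (SE 0.28). Socs6 differed by -0.25 (SE 0.32). It was detected on 1 untreated and 2 C5a arrays, and Cish on 2 untreated and 3 C5a arrays. Of 32 JAK-STAT genes 24 were tested, 15 positive and 9 negative (median 0.10). Ptpn2, a phosphatase that acts on JAK and STAT proteins, differed by 0.77 (SE 0.37) and was detected on 1 untreated and 3 C5a arrays. Il10ra, a chain of the IL-10 receptor, differed by 0.50 (SE 0.33) and Csf3r, the receptor of CSF-3, by 0.22 (SE 0.35). Il10ra was detected on 2 untreated and 3 C5a arrays. Csf2rb, the shared chain of the CSF-2 receptor, had a mean of 2.74 ± 0.77 (SD) without and 2.69 ± 0.75 with C5a and was lowest on number 3 in both groups, at 1.86 and 1.88.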

How the data were processed

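Per the file headers, the arrays (design 074809, citing build mm9) were 1-colour arrays of 1 slide, scanned once and processed by Agilent Feature Extraction (version 10.10.1.1, protocol GE1_1100_Jul11). The deposited scanner files hold each spot's intensity as a processed signal (local background already removed, arrays not scaled to each other), the median intensity of spot and local background, and flags of 0 or 1. The deposited series table holds log2 values. Of its differences between arrays, 99.784% lay within 0.02 of those of the scanner signals in log2, scaled to the 75th percentile of all probes, while the baseline subtracted from each probe stays unknown. The medians of its columns, untreated 1 to 3 first, were 0.17, -0.08, 0.18, 0.01, -0.02 and 0.22. This table was an alternative source of values.

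Control spots were left out. The log2 signals of a probe's spots were averaged without outlier-marked spots (112 to 138 per array), no spot was saturated, and a probe was well above background where at least 0.5 of its spots were. Each array was scaled by its 75th percentile over the 2370 probes with that flag on every array. Probes well above background on at least 3 arrays were kept and the brightest kept probe stood for a gene, while a kept probe without a name was tested on its own. Accessions were named through RefSeq GRCm38.p6, which matched 32994 of 56605 probes. The number of arrays limits the precision.

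The comparison used limma 3.58.1 (lmFit and eBayes, R 4.3.3) and Benjamini-Hochberg adjustment, and the procedure was run on simulated data. Those data had independent errors between arrays and larger differences than any member had. They therefore cannot show how well differences of the members' size would be found. Same-numbered samples correlated above 0.1 in every pair (0.211, 0.269 and 0.384 as deviations from group means), a pairing taken from the data and the labels' numbers, and the number was used as a block in an alternative. Alternatives changed the scaling, background correction, source of values, filter, probe, spots, variance model, weights, slide row and samples. The files hold no mean spot signal, so normexp (offset 50) used the median signal in place of the planned mean. Members and gene lists were chosen with earlier results of these data known. Text names all members, and from each list the 2 genes with the smallest p and the 2 with the highest level at most, with others only as detected or not, and the 3 genes most like each member detected on all 6 arrays. One planned marker gene is not reported here.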

Additional observations from a re-analysis of the deposited data

How the results depend on the processing

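For C5a against untreated, limma called 0 genes in the main setting and in every alternative run except the one without a filter on dim probes, where it called 47 of 46522 genes and 0 members. With the replicate number as a block it called 0 genes (190 at an unadjusted p under 0.05, against 105), and the block changed no member's call. Positive differences numbered 6 of 9 members, 2 of 9 with normexp, 3 of 6 with probes detected on all 6 arrays, and 5 to 7 when 1 sample was left out. Of 177 member values under alternatives, 153 kept their sign and 24 turned, and none passed. Relative to the median of all genes in each setting, 19 turned. The other filters, the variance trend and the replicate block left the difference of each member tested at its main value, so its own sign could not turn there. The deposited table repeats the scaling over all probes and is not a separate check. Scaling over all probes and the deposited table gave 0.26 and 0.26 for Cd40, 0.26 and 0.26 for Cd86 and 0.21 and 0.21 for Cd83, turns that follow from the scaling, which moved the median of all genes from 0.04 to 0.40. Normexp gave -0.03 for Cd80, -0.13 for Pdcd1lg2, -0.03 for Cd200 and -0.04 for Socs1, and array weights 0.01 for Cd86 and -0.08 for Pdcd1lg2. The median of all genes with normexp was -0.12, with Cd80, Cd200 and Socs1 above it and Pdcd1lg2 just below. Without both arrays of number 3, chosen after seeing the data, Cd40 was at 0.06. Leaving out 1 sample gave -0.36 to 0.32 for Cd40, -0.30 to 1.20 for Cd80, -0.34 to 0.10 for Cd86, -0.42 to 0.11 for Cd83, -0.0046 to 0.43 for Cd274, 0.02 to 0.61 for Pdcd1lg2, -0.15 to 0.88 for Cd200, 0.01 to 1.22 for Socs1 and 0.05 to 0.26 for Socs3. The cause of the turns with normexp and array weights was not tested.

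For the replicate numbers, limma's F test called 0 genes in the main setting, 2102 (46.8%) with scaling over all probes, 2106 (46.9%) in the deposited table, 1824 (40.6%) with normexp, 34628 (74.4%) without the filter and 17 (0.779%) with probes detected on all 6 arrays. Scaling over all probes rests mostly on undetected ones, since 48672 of 56605 were detected on no array. Over the probes detected on every array, the unscaled 75th percentile was 459.6 and 377.3 on untreated 2 and C5a 2. On untreated 3 and C5a 3 it was 108.7 and 154.0. The part of array brightness in these calls was not tested. Leaving out 1 sample gave 0 to 24, with 24 without untreated 3 and 4 without C5a 3. Members called were 3 of 9, Socs1, Cd86 and Cd80, with scaling over all probes and in the deposited table, 5 of 9, Cd83, Socs1, Cd40, Cd200 and Pdcd1lg2, with normexp, and 4 of 10, Socs1, Cd80, Cd200 and Icosl, without the filter. The deposited table repeats the scaling over all probes, so its calls are not a separate result. Neither Icosl probe was detected on any array, so its call rests on background signal. The slide row holds C5a arrays alone in row 2, so that fit sets C5a 1 against the untreated arrays. Signal near background limits Cd80, Socs1, Pdcd1lg2, Cd200 and Icosl.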
